A study of Mus musculus with 4 samples.

Results

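The genes described here encode the subunits of the mitochondrial respiratory chain and of the ATP synthase. They were chosen by name alone, as every gene name on the array that begins with Nduf followed by a, b, c, s or v and a digit, with Uqcr, with Cox and a digit from 4 to 8 or with Atp5, plus the 4 Sdh genes. This gave 85 of 34844 gene names, of which 81 encode a subunit and 4 do not (Cox4nb, now named Emc8, Ndufa4l2, Atp5s, now Dmac2l, and Atp5sl, now Dmac2). RNA was measured on 4 microarrays in interscapular brown adipose tissue (iBAT) and epididymal white adipose tissue (eWAT) of WT mice and of mice that lack ASK1 (labelled ASK1KO), a stress-activated kinase of the MAP3K family encoded by Map3k5. All mice were 10-week-old males with no treatment named in the labels. The deficiency is not limited to adipocytes, and the WT and ASK1-deficient mice were bred separately and are not littermates. Each of the 4 groups (WT iBAT, ASK1-deficient iBAT, WT eWAT and ASK1-deficient eWAT) is 1 array hybridised with RNA pooled from 3 mice, so no group has a replicate and the spread between mice is not seen.

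Electrons from NADH enter the chain at complex I and those from succinate at complex II, pass over ubiquinone to complex III and over cytochrome c to complex IV, and are taken up there by oxygen. The protons that complexes I, III and IV move across the inner membrane return through the ATP synthase (complex V), which makes ATP. Brown adipocytes are packed with mitochondria and hold uncoupling protein 1 (Ucp1), which lets the protons return without ATP and so releases heat, whereas white adipocytes store lipid and hold few mitochondria. Several small subunits of complex IV exist as pairs of isoforms from separate genes, one found in most tissues and one enriched in heart, skeletal muscle and brown fat.

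The members were read by 128 probes in 137 spots, and 56 genes had 1 probe. On all 4 arrays 125 probes and 83 genes were well above background by the scanner software's flag. Cox7b2 and Cox8c, isoforms known from testis, were not well above background on any array and had signals from 4.15 to 4.76 and from 4.36 to 6.11, and of the 4 Ndufb5 probes 1 was below that flag in WT eWAT. Signals were divided by each array's 75th percentile before ratios were taken, and a gene's value is the mean log2 value over its probes. Signals printed here are those before that scaling unless called scaled. The signals of measured members ran from 71.4 to 499581 and no spot was saturated. The median signal of the 83 genes in iBAT was 82658 on the WT array and 72517 on the ASK1-deficient array, and in eWAT it was 33805 and 33021.

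For the series as a whole, 28985 to 33389 of 55681 probes were well above background on an array, and all 4 arrays shared 1 slide and 1 scan. The SD of a log2 ratio over repeated spots of a probe, called technical SD below, had a median of 0.087 for the genotypes in iBAT and 0.060 in eWAT, and it covers neither the RNA pools nor the mice. The Map3k5 probe at chr10:19860474-19861330 (mm9) read 448 (WT) and 117 (ASK1-deficient) in iBAT, and 701 and 194 in eWAT, which gives log2 ratios of −2.0 and −1.76. A probe nearer the end of the gene (chr10:19862193-19862252) gave −0.06 and −0.51. Markers of brown adipocytes and adipocytes were well above background in iBAT (13 of 13 and 9 of 9 genes on the array). In eWAT the 9 adipocyte markers and all 7 white adipocyte markers were measured, but 15 of 15 hepatocyte markers were also well above background in WT eWAT against 7 in ASK1-deficient eWAT, and their median log2 ratio was −2.91 over the 7 measured on both. The adipocyte markers had a median log2 ratio, ASK1-deficient over WT, of −0.28 in iBAT and 0.07 in eWAT.

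The first comparison asked how the brown and white depots differ. Nearly the whole set was far higher in iBAT than in eWAT. The median log2 ratio over the 83 genes was 2.20 for the WT arrays and 1.84 for the ASK1-deficient arrays, which is 4.59-fold and 3.59-fold, while the median over all genes was 0.19 and 0.10. These sizes depend on the scaling, and the medians were 1.57 and 1.44 with quantile normalization and 1.28 and 1.07 with no scaling. In a limma fit of tissue and genotype over the 4 arrays (1 residual degree of freedom, 20001 genes, Benjamini-Hochberg adjusted p under 0.05), 79 of the 83 were called higher in iBAT, where 33.4% of all genes were called higher. The SE of the tissue difference ran from 0.138 to 0.204. Atp5g1 was called lower (21.1% of all genes were), and Atp5g3, Cox4nb and Ndufa4l2 were not called. Fewer cells of a type and less RNA per cell cannot be told apart in such bulk samples.

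**Figure D1:**
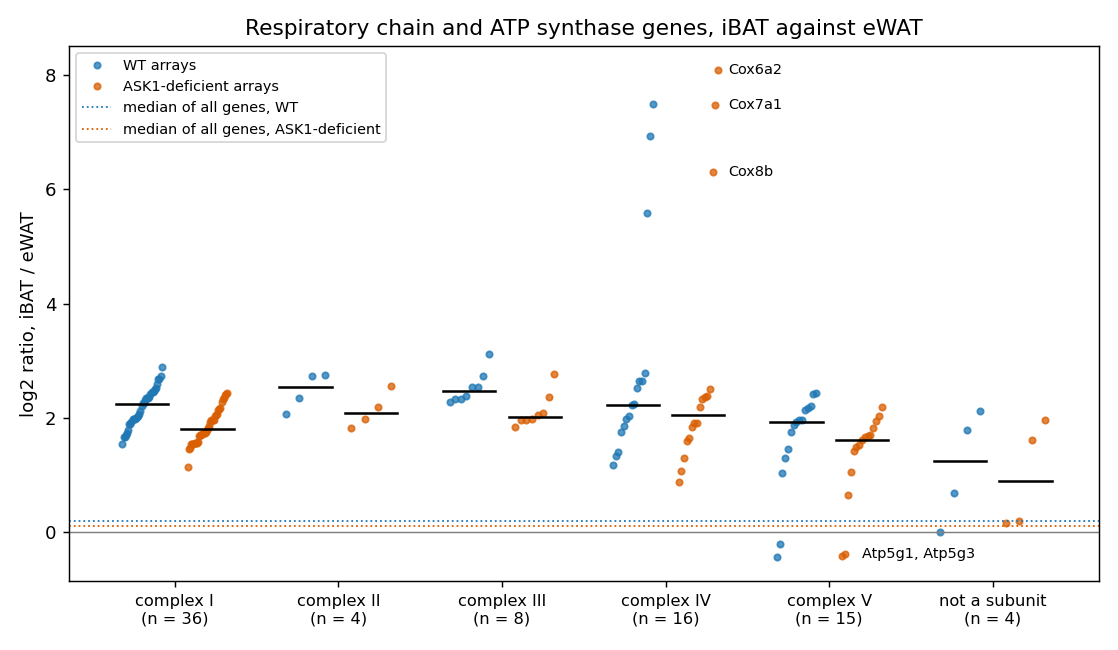
Log2 ratio of iBAT over eWAT for the 83 measured genes by complex, with blue points for the WT arrays, orange points for the ASK1-deficient arrays, black bars at the group medians and dotted lines at the medians of all genes (0.19 and 0.10). Most genes lie between 1 and 3, Cox6a2, Cox7a1 and Cox8b lie above 5, and Atp5g1 and Atp5g3 lie below 0.

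Complex I, the largest complex of the chain, had 36 measured genes, all 36 called higher in iBAT, with a median limma log2 difference of 2.04 and a range from 1.34 (Ndufa2) to 2.61 (Ndufs8). The 7 nuclear genes of its catalytic core, which carry the flavin and the iron-sulphur clusters, had medians of 2.52 (WT) and 2.33 (ASK1-deficient). The 29 accessory genes had medians of 2.03 and 1.72. Ndufs8, an iron-sulphur subunit of that core, read 22553 and 17352 in WT and ASK1-deficient iBAT and 5782 and 5875 in the eWAT arrays. Both iBAT signals lay far above both eWAT signals, and the limma difference was 2.61 ± 0.180 (SE, adjusted p = 0.000257). Ndufa4, counted here by its name but known to be found in complex IV, was 2.13 higher on the log2 scale (adjusted p = 0.000308).

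Complex II oxidises succinate and is shared with the citric acid cycle, and all 4 of its genes were called higher in iBAT, with a median of 2.31. The flavoprotein gene Sdha differed by 1.95, the iron-sulphur gene Sdhb by 2.65, and the membrane anchors Sdhc and Sdhd by 2.16 and 2.46. Sdhb read 120072 and 110106 in WT and ASK1-deficient iBAT and 33805 and 32132 in eWAT, so the depots were well apart and the genotypes close within each. All 8 genes of complex III were called higher as well, within a narrow band from 2.09 (Uqcrh) to 2.94 (Uqcrc1). Uqcrc1, a core protein of that complex, read 52872, 42196, 11569 and 10562 in the same order of arrays, and its difference of 2.94 ± 0.156 (SE, adjusted p = 0.000128) was the highest of the 83 genes outside 3 complex IV isoforms.

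In complex V, 13 of 15 genes were called higher and the median was 1.76. The exceptions encode subunit c, which forms the rotating ring in the membrane and comes from the genes Atp5g1, Atp5g2 and Atp5g3, whose mature proteins are alike and whose import sequences differ. Atp5g1 read 10507 and 11278 in WT and ASK1-deficient iBAT against 27015 and 25292 in eWAT, and was lower in iBAT by a limma log2 difference of −0.42 ± 0.139 (SE, adjusted p = 0.0473). Both of its probes were lower in iBAT of WT mice (−0.29 and −0.60). Atp5g3 read 61603, 55782, 135360 and 128077, a difference of −0.32 (adjusted p = 0.112), and Atp5g2 was higher in iBAT by 1.18 (adjusted p = 0.0017). The lower call of Atp5g1 was lost with the brightest probe of each gene (adjusted p = 0.187), with the deposited series table (0.123) or with no filter on dim probes (0.161). It was also lost without either eWAT array, but this leaves 1 array in that depot, so the loss cannot be told from lost precision. The call for Atp5g3 depended on the scaling in the other direction, and it was called lower after quantile normalization (−0.95, adjusted p = 0.00151). Atp5c1, the central shaft subunit gamma, was the least higher of the other called genes (0.84, adjusted p = 0.00722), a call that ended with no scaling (adjusted p = 0.991), with quantile normalization (0.0809) and without a filter on dim probes (0.0505), while Atp5d (delta) reached 2.30. Of the 4 genes that encode no subunit, Atp5s and Atp5sl were called higher (1.70 and 2.03), and Cox4nb and Ndufa4l2, a hypoxia-induced relative of Ndufa4, had differences of 0.41 (adjusted p = 0.0982) and 0.09 (adjusted p = 0.631).

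Probes of 1 gene mostly gave similar tissue ratios, with a median range of 0.16 in WT over the 29 genes with several probes, but a few did not. The Atp5j probes gave 0.61 and 2.87 in WT, those of Ndufv3 gave 0.89, 1.58 and 2.72, and the averages of these genes hide that gap.

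Complex IV spread most widely. All 16 measured genes were called higher in iBAT, 13 of them between 1.02 (Cox4i2) and 2.64 (Cox5a), and the other 3 were the muscle-type isoforms Cox6a2, Cox7a1 and Cox8b. Cox6a2, a small nuclear-encoded subunit, read 12012 in WT and 11360.1 in ASK1-deficient iBAT but 126 in WT and 71.4 in ASK1-deficient eWAT. It was 181-fold higher in iBAT of WT mice and 272-fold in ASK1-deficient mice (limma 7.79 ± 0.185, adjusted p = 2.56e-05). Cox7a1 read 211503, 179594, 3270.1 and 1728 in that order, a 122-fold and 177-fold difference (7.20 ± 0.178, adjusted p = 2.56e-05). Cox8b read 280656, 267665, 11019 and 5792, a 48.2-fold and 78.9-fold difference (5.95 ± 0.204, adjusted p = 5.09e-05). For each of these 3 isoforms the 2 iBAT arrays were far above the 2 eWAT arrays, and within eWAT the ASK1-deficient array was the lower.

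Their partners found in most tissues differed far less. Cox6a1 read 499581, 462698, 282089 and 261911, Cox7a2 read 77235, 67048, 36008 and 36512, and Cox8a read 238374, 232922, 171720 and 161919. Their limma log2 differences were 1.67, 1.83 and 1.34. The subunit 4 and 6b pairs were called higher in both their forms. Cox4i1, the common form of subunit 4, and Cox4i2, its lung and hypoxia form, differed by 1.94 and 1.02. Cox6b1 and Cox6b2, a form known from testis, differed by 2.48 and 2.12. Cox7b, whose partner Cox7b2 was not measured, differed by 2.50 and Cox7a2l, a Cox7a relative, by 1.20. No difference between isoforms was tested.

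**Figure D2:**
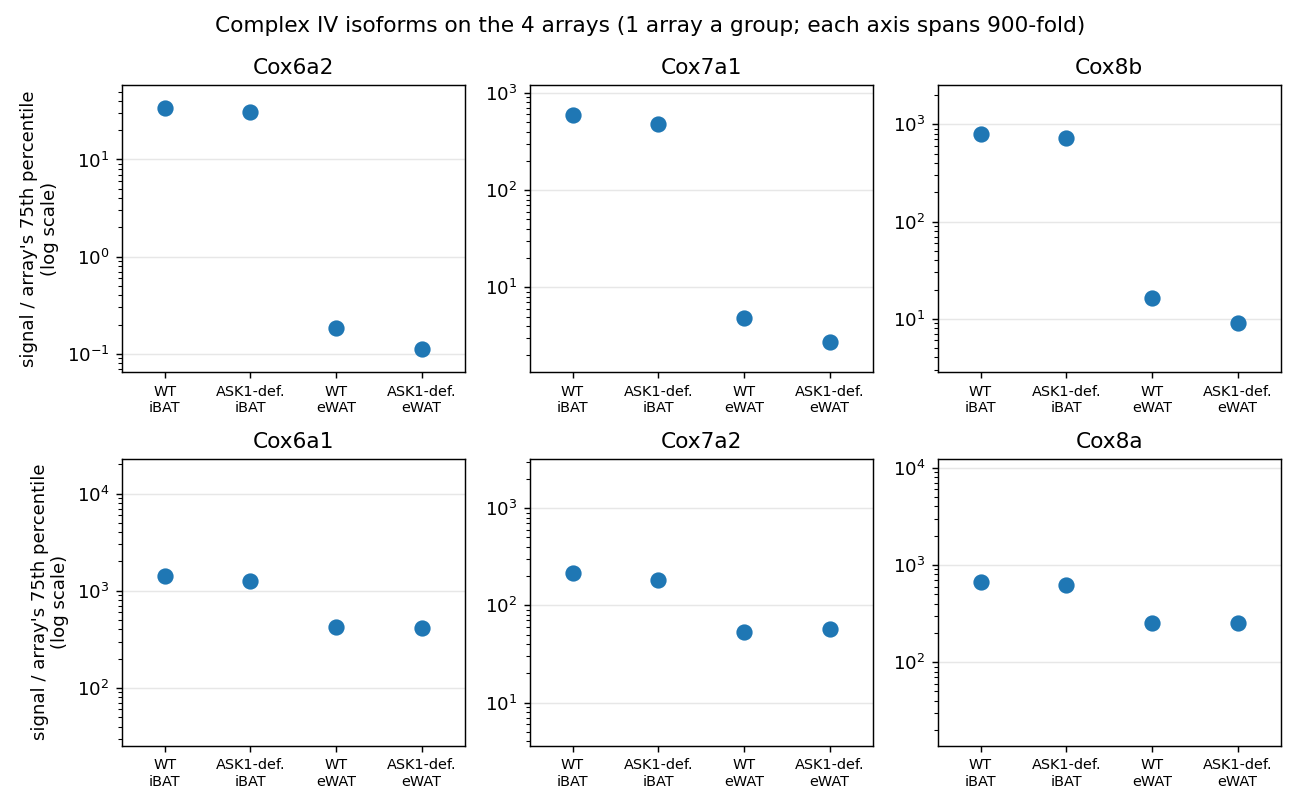
Signal divided by the array's 75th percentile (log axis, 1 point for each array) for Cox6a2, Cox7a1 and Cox8b (top) and for Cox6a1, Cox7a2 and Cox8a (bottom), each axis spanning the same number of decades. The top row falls steeply from iBAT to eWAT, for Cox7a1 from 594 in WT iBAT to 4.86 in WT and 2.73 in ASK1-deficient eWAT, and the bottom row falls little.

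The skeletal muscle markers moved the same way between depots, and their part in the isoform result was not tested. All 15 were well above background on both iBAT arrays, 14 on the WT eWAT array and 13 on the ASK1-deficient one, where Ckm and Mylpf were below it. Their summed scaled signal was 1210 and 1187 in WT and ASK1-deficient iBAT against 20.7 and 16.8 in eWAT. Called higher in iBAT were 13 of 13 measured on all arrays (33.4% of all genes were), with a median limma log2 difference of 7.29. The brown adipocyte markers summed to 2599 and 2127 in iBAT and to 36.4 and 13.6 in eWAT.

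The sequences before the start sites of the Cox6a, Cox7a and Cox8 isoforms are shown, apart from Cox6a2, because the forms differ so much between depots. Promoters came from RefSeq on GRCm38.p6, as the 250 bases before the start, and were matched for 69 of the 85 genes in 75 windows. Both strands were searched for the letters GCGCA and GCGC with 1 base between them (bound by the nuclear respiratory factor NRF1), CCGGAAG (bound by ETS factors such as GABP), AAGGTCA (bound by oestrogen-related receptors), CTA and TAG with any 4 bases between them (a looser form of the MEF2 site) and TATAAA (the TATA box), and matches are in capitals. The MEF2 site itself takes only A or T as those 4 bases, so a match to the looser form need not be such a site. The strand shown is the coding one.

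Cox7a1: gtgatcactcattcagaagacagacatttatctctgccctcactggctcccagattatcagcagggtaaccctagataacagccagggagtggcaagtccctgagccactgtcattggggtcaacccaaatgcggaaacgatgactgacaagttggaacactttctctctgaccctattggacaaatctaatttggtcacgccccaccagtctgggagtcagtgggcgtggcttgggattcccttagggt
Cox8b: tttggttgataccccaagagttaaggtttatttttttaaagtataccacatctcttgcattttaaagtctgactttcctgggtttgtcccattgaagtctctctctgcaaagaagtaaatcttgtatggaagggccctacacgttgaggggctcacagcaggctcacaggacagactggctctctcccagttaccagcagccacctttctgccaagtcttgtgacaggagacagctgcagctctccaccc
Cox7a2: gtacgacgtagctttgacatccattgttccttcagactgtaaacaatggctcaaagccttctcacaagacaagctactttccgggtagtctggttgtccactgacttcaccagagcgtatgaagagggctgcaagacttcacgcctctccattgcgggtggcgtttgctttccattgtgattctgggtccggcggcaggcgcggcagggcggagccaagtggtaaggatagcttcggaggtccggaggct
Cox8a: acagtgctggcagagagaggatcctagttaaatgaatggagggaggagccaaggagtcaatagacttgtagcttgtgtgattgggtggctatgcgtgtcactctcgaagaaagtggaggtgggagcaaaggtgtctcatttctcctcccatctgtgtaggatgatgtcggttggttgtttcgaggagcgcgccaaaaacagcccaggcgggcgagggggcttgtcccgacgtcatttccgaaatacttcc
Cox6a1: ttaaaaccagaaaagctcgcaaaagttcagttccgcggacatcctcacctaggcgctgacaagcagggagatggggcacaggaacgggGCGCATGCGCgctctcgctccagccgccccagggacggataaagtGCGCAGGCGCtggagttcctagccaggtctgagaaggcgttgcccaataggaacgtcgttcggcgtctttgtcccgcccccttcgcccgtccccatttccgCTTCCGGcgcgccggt

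The windows are chr7:30183921-30184170 on the plus strand for Cox7a1, chr7:140900447-140900696 on the minus strand for Cox8b, chr9:79759854-79760103 (minus) for Cox7a2, chr19:7217617-7217866 (minus) for Cox8a and chr5:115348959-115349208 (minus) for Cox6a1. That of Cox6a1 held the NRF1 letters 162 and 117 bases before the start and the ETS letters 16 bases before it, on the opposite strand, and no letters searched were found in the other 4. Cox8b held 1 CpG and Cox7a1 held 4, against 14 in Cox7a2, 11 in Cox8a and 26 in Cox6a1. The median window of the members held 14 CpG and that of all 32851 windows 6, with GC contents of 56% and 52.4%. The NRF1 letters were in 14 of the 75 windows (18.7%, against 3.74% of all windows), the ETS letters in 12 (16% against 6.91%) and the oestrogen-related receptor letters in 5 (6.67% against 4.08%). The TATA letters were in 7 (9.33% against 12.4%) and the looser form of the MEF2 letters in 1 (1.33% against 3.20%). No matches of different motifs overlapped, 44 windows held none of the 5, and a match in these letters is a description and shows no binding. The probes that gave the isoform signals lie at chr7:135349160-135349219 (Cox6a2), chr7:30970337-30970948 (Cox7a1) and chr7:148084852-148084911 (Cox8b) on mm9.

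The second comparison set ASK1-deficient against WT iBAT. The set was slightly lower as a whole in the ASK1-deficient array. The median log2 ratio over the 83 genes was −0.24, a level of 0.847 of WT, where all genes had a median of −0.04. Of the 83 genes, 79 were below 0 (56.3% of all genes were) and 75 were below the median of all genes. The median member signal lay above 98.8% of the probes well above background on the WT iBAT array. All genes are thus mostly far dimmer than the members, and a shift that depends on brightness was not tested. No member was 1.5-fold apart in either direction, while 4.65% of all genes were higher and 4.14% lower by that much. More than 2 technical SDs below 0 lay 57 members (32.4% of all genes), and 1 lay as far above (23.6%). With 1 array for each genotype there is no test of this difference, and with quantile normalization the median was −0.09 while that of all genes was −0.01.

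**Figure D3:**
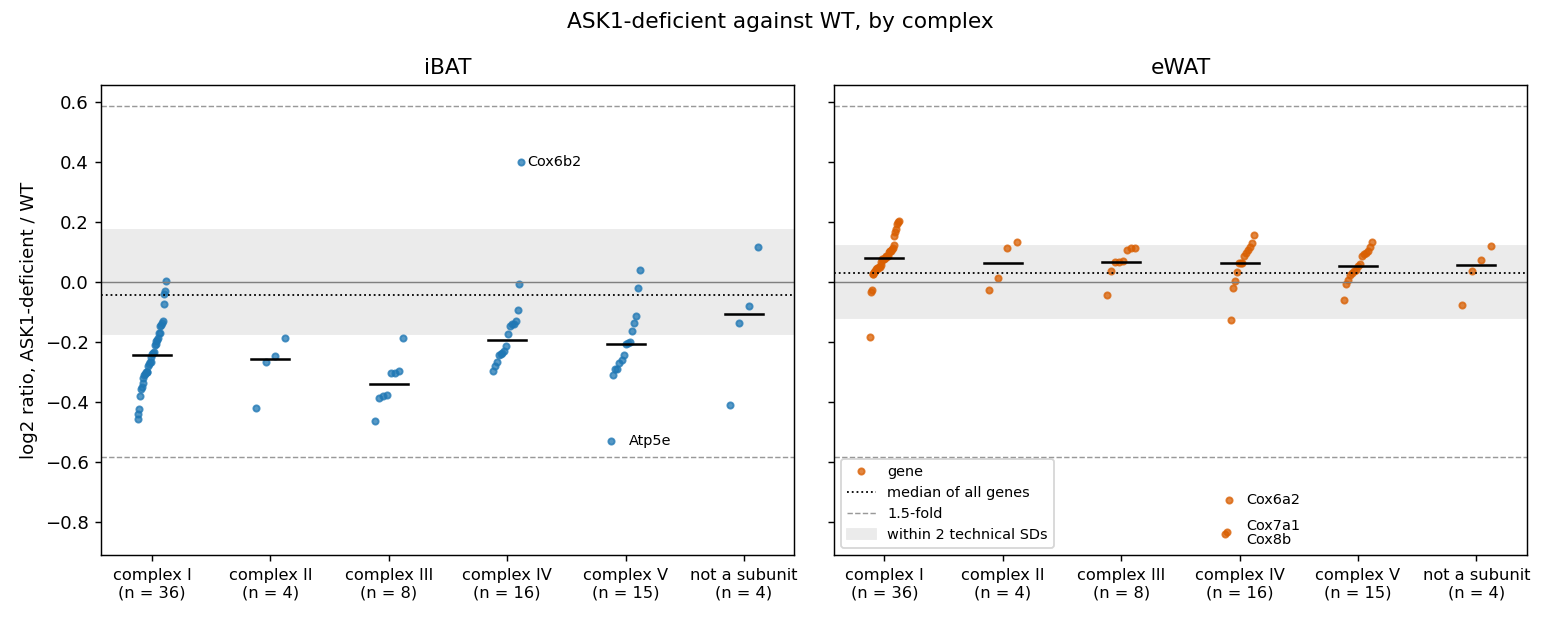
Log2 ratio of ASK1-deficient over WT for the 83 genes by complex, in iBAT (left) and eWAT (right), with black bars at group medians, a dotted line at the median of all genes, dashed lines at 1.5-fold and a grey band within 2 technical SDs. In iBAT the medians of complexes I to V lie between −0.34 and −0.19, and in eWAT between 0.05 and 0.08 with Cox6a2, Cox7a1 and Cox8b below −0.7.

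The complexes differed little from each other in iBAT. Complex III had the lowest median, −0.34, with its 8 genes from −0.46 (Uqcrfs1) to −0.19 (Uqcr11). Complex I had a median of −0.24, with core genes at −0.30 and accessory genes at −0.24, complex II −0.26, complex IV −0.19 and complex V −0.21. The genes that encode no subunit had a median of −0.11.

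Uqcrc2, the other core protein of complex III, had the only member probe spotted more than once. Its 10 spots gave a log2 ratio of −0.31 ± 0.038 (SD over spots) in iBAT and 0.07 ± 0.062 in eWAT, from signals of 115902 and 97896 in WT and ASK1-deficient iBAT and of 32919 and 32416 in eWAT. The iBAT ratio of this gene was thus well beyond its own spot error, which says nothing of the spread between mice.

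The lowest member in iBAT was Atp5e, the epsilon subunit of the ATP synthase stalk, which in iBAT read 142701 on the WT and 102999 on the ASK1-deficient array (−0.53) and 61468 and 55517 in eWAT (−0.06). The iron-sulphur protein of complex III, Uqcrfs1, read 97531 and 73874 in iBAT (−0.46) and 31729 and 32292 in eWAT (0.11). Ndufb5, an accessory subunit of complex I, was at −0.46 from probes at −0.70, −0.41, −0.40 and −0.32. The core subunits Ndufs8 and Ndufs3 were at −0.44 and −0.42 and the membrane anchor Sdhd at −0.42. These genes stand in 4 complexes, and each is a lower reading on a single array.

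At the other end, Cox6b2 read 673 in WT and 926 in ASK1-deficient iBAT (0.40) against 351 and 303 in eWAT (−0.13), with its probe well above background on all 4 arrays. Ndufa4l2 was at 0.12, Atp5g1 at 0.04, Ndufb10 at 0.00 and Cox4i1 at −0.01. In iBAT the muscle-type isoforms lay with the rest, at −0.14 for Cox6a2, −0.30 for Cox7a1 and −0.13 for Cox8b.

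**Figure D4:**
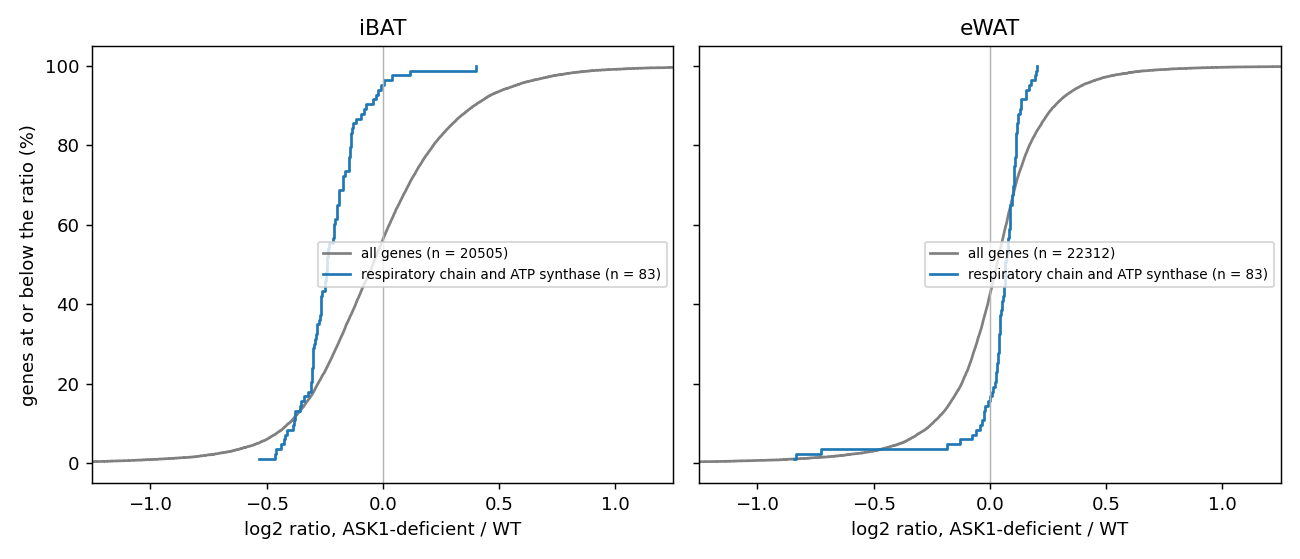
Cumulative share of genes (%) at or below each log2 ratio of ASK1-deficient over WT in iBAT (left) and eWAT (right), with the 83 members in blue and all measured genes in grey. In iBAT the blue curve lies to the left of the grey one around its median of −0.24, and in eWAT it is steeper than the grey one around 0.07 with a tail of 3 genes below −0.7.

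Other measures moved with genotype in iBAT, and their part in the result was not tested. Of 14 macrophage markers on the array, 11 were well above background in WT and 14 in ASK1-deficient iBAT, their summed scaled signal was 24.2 and 33.8, and their median log2 ratio was 0.72 over 11 genes. Of 15 hepatocyte markers, 4 were well above background in WT and 13 in ASK1-deficient iBAT, where albumin (Alb) read 7.5 and 115, although their summed scaled signal was 46.1 and 44.5, with the median of the 4 measured on both arrays at 0.00 and Serpina1a at 1.55. The white adipocyte markers had a median of 0.30 over 5 genes, 3 of them above 0, and the endothelial markers one of 0.12, with 6 of 7 above 0. The adipocyte markers had a median of −0.28, with 6 of 9 below 0 and Adipoq at 0.13. The brown adipocyte markers had a median of −0.24, with Ucp1 at −0.44, the thyroid hormone deiodinase Dio2 at −2.37 and Elovl3 lowest at −4.10. Lhx8 (0.10) and Ppara (0.03) were above 0. Ppargc1a, a coactivator that drives mitochondrial biogenesis, was at −0.34 from probes at −0.75 and 0.08.

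The third comparison set ASK1-deficient against WT eWAT. Here the set was close to WT, and its lowest ratios were those of the muscle-type isoforms of complex IV. The median log2 ratio was 0.07, where that of all genes was 0.03, and 70 of 83 genes were above 0 (57.6% of all genes). The sign of this median depends on the scaling, and it was 0.0032 with quantile normalization and −0.022 with no scaling. Complexes I to V had medians of 0.08, 0.06, 0.07, 0.06 and 0.05. More than 2 technical SDs above 0 lay 11 members (28% of all genes) and as far below 5 (20.2%). The highest were Ndufa6 and Ndufs3 at 0.20, Ndufa3 at 0.19, Ndufs4 at 0.18 and Ndufs6 at 0.17. None was 1.5-fold higher (1.9% of all genes).

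At least 1.5-fold lower were 3 of 83 members (3.61%, against 2.38% of all genes), a count near that of genes in general, and these were Cox8b, Cox7a1 and Cox6a2. Cox8b fell from 11019 to 5792 in signal and was 1.79-fold lower after scaling (−0.84). Cox7a1 fell from 3270.1 to 1728 and was 1.78-fold lower (−0.83). Cox6a2 fell from 126 to 71.4 and was 1.66-fold lower (−0.73). Of all genes, 1.10%, 1.13% and 1.53% had a lower ratio. None of the 3 was 2-fold lower (0.74% of all genes were), each has 1 probe in 1 spot, and with normexp background correction Cox6a2 was at −0.31. Their partners read 282089 and 261911 (Cox6a1, −0.02), 36008 and 36512 (Cox7a2, 0.11) and 171720 and 161919 (Cox8a, 0.00). The next lowest members were Ndufb5 at −0.18 and Cox6b2 at −0.13. The Ndufb5 value came from probes at −0.42, −0.14 and 0.00, and without a filter on dim probes it turned to 0.05.

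Markers of brown adipocytes and skeletal muscle were also lower in the ASK1-deficient eWAT array, and their part in the isoform ratios was not tested. The muscle markers had a median log2 ratio of −0.30 over 13 genes, 5 of them at least 1.5-fold lower (2.38% of all genes were). Among the 5 were Tnni2 (−1.04) and Acta1 (−1.02) of the contractile apparatus and the fast myosin Myh4 (−0.87), chosen after their values were seen. In all 10 of the 13 were below 0 and 3 above it, the highest Myl1 at 0.22. In iBAT the median of the 15 muscle markers was −0.01. The brown adipocyte markers had a median of −0.19 over 11 genes in eWAT, 7 below 0 and 4 above it, and 5 of them were at least 1.5-fold lower. The highest was the transcription factor Zic1 at 0.40. Ucp1 read 6603 in WT and 252 in ASK1-deficient eWAT (−4.63), and the lipid droplet protein Cidea was at −2.23. The hepatocyte markers moved furthest of the lists, with a median of −2.91 over 7 genes, all 7 below 0 and 5 at least 1.5-fold lower. Adipocyte markers (0.07) and macrophage markers (−0.07) were close to 0.

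The genotype ratio of a member was lower in iBAT than in eWAT for 77 of 83 genes, with a median difference of −0.31 on the log2 scale, against −0.08 and 60.1% of genes over the 20011 genes with both ratios. The size depends on the scaling, and with quantile normalization it was 61 of 83 genes and −0.092, against −0.028 and 53.8% over all genes. Without replicates this difference between depots has no test. Over both tissues together, limma called no member and no gene at all for genotype (0 of 20001 at an adjusted p under 0.05). At an unadjusted p under 0.05 stood 1206 genes (6.03%) and 1 member, Cox7a1, at −0.57 (limma adjusted p = 0.773).

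The partners of these subunits were measured on the same arrays. The 13 subunits encoded by mitochondrial DNA were all called higher in iBAT (33.4% of all genes were). Their median limma log2 difference was 1.51, with a range from 0.61 (ND6) to 3.03 (ND1). However, 6 of their 13 probes are listed by the files on chromosome 1, where a nuclear copy of mitochondrial DNA lies, and 7 on the mitochondrial genome. Their genotype medians were −0.11 in iBAT, with 13 of 13 below 0 (56.3% of all genes were), and 0.03 in eWAT. The medians of all genes were −0.04 and 0.03.

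The list of electron carriers was called higher in iBAT in 5 of 5 cases (33.4% of all genes were), with a median of 2.48. It was led by cytochrome c1 (Cyc1, 3.02), itself a catalytic subunit of complex III whose name the choice of members did not take in. The genotype median of the carriers was −0.27 in iBAT and 0.05 in eWAT. Cytochrome c (Cycs) was at −0.61 in iBAT, past 1.5-fold (4.14% of all genes were as low), with the flavoprotein dehydrogenase Etfdh at −0.53. The genes of ubiquinone synthesis were called higher in iBAT in 12 of 13 cases (median 1.42), against 33.4% of all genes, and the kinase-like Adck3 reached 5.72. Their genotype medians were −0.19 and 0.12, and Coq10b was at −0.89 in iBAT.

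Lists of assembly factors, which help to build the complexes, were mostly higher in iBAT too. Called higher in iBAT were 8 of 9 for complex I, 4 of 5 for complexes II and III, and 12 of 14 for complex IV (33.4% of all genes were). The list for complex V also holds the inhibitor Atpif1 and the small proteins Usmg5 and 2010107E04Rik, which stay with the synthase. Of its 5 measured genes 4 were called higher, the assembly factors Atpaf2 and Tmem70 and those small proteins. The inhibitor Atpif1, which blocks the synthase when it runs backwards, was called lower, as 21.1% of all genes were (−0.85, adjusted p = 0.00428). Genotype medians of these 4 lists in iBAT were −0.30, −0.24, −0.31 and −0.36, and in eWAT 0.11, 0.06, 0.05 and 0.06. At least 1.5-fold lower in iBAT (4.14% of all genes) were Ndufaf4 (−0.77), Sco1 (−0.70) and Cox11 (−0.69), the last pair being copper chaperones of complex IV. At least 1.5-fold higher in eWAT (1.9%) were Cox10 (1.36), an enzyme of haem a synthesis, and Atpaf1 (0.59). Atpaf1 read 22.7 and 32.2 in WT and ASK1-deficient eWAT, where the lowest signals well above background were 18.9 and 20.7. Cox10 has 1 probe, which read 110 and 266 there. Of the 2 Cox11 probes, 1 was well above background in ASK1-deficient iBAT.

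**Figure D5:**
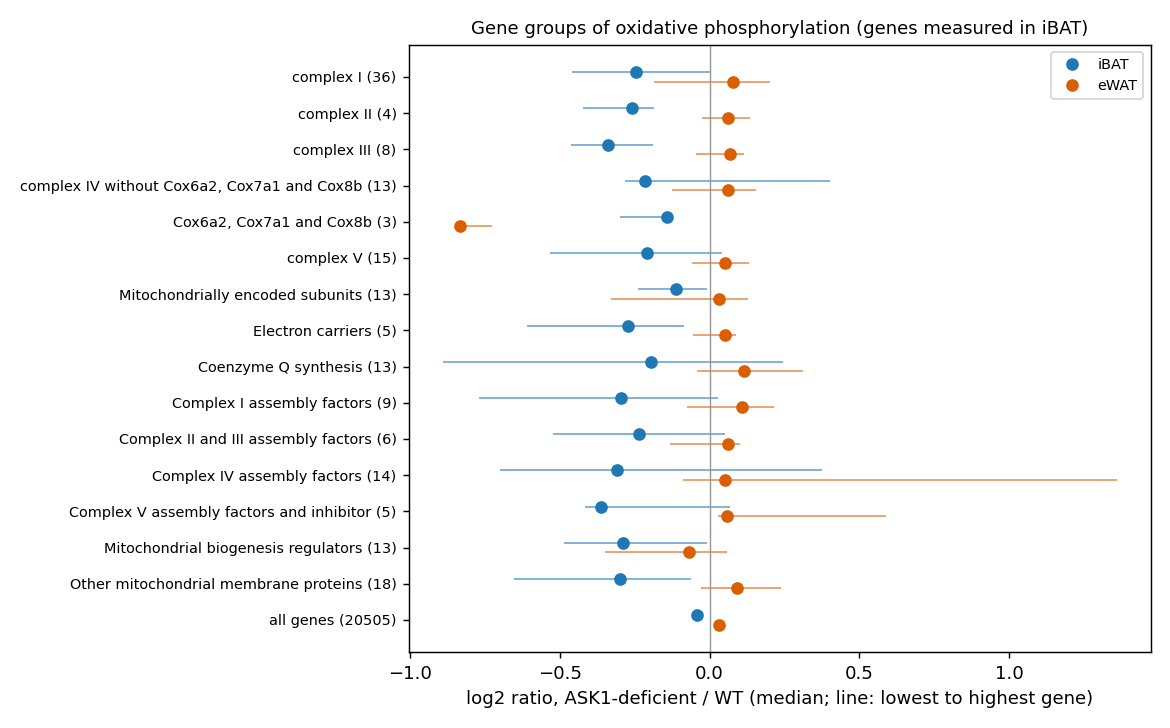
Median log2 ratio of ASK1-deficient over WT (points) and the lowest to highest gene (lines) for each complex and for related gene lists, in iBAT (blue) and eWAT (orange), with the number of genes measured in iBAT in brackets and no line for all genes. Every iBAT median lies between −0.36 and −0.11 except that of all genes (−0.04), and the only eWAT medians below 0 are those of Cox6a2, Cox7a1 and Cox8b together (−0.83) and of the biogenesis regulators (−0.07).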

How the data were processed

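RNA from pools of 3 mice was hybridised to 4 Agilent 1-colour mouse arrays, 1 for each tissue and genotype, and samples were grouped by their titles. The authors deposited the Feature Extraction 10.7.3.1 output of each array, whose processed signal is a linear intensity after spatial detrending, with dim spots replaced by surrogate values and no scaling between arrays. The raw mean and background intensity columns deposited with it served as an alternative. The deposited series table holds a signal that equals the processed signal divided by 1 constant for each array, so that its median is 1. Probe positions are those of the files (mm9), and probes were not assigned to exons.

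Control and outlier spots were left out, the log2 signal of each array's 75th percentile was subtracted, spots of a probe were averaged, and probes of a gene were averaged where both arrays compared (for limma all 4) read them well above background. Signals printed for a gene with several probes are geometric means. Within a tissue no test was possible, and members past 1.5-fold and 2-fold were counted beside all genes. Tissue and genotype were fitted together with limma 3.58.1 in R 4.3.3 (eBayes, two-sided, Benjamini-Hochberg over 20001 genes), where p-values measure only the spread left by an additive model of 4 arrays. The fit was also run on simulated arrays with additive effects and independent noise. That run cannot vouch for genes whose genotype ratio differs between tissues. The other steps used Python 3.11.15, numpy 2.4.6 and pandas 2.3.3.

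The members, the gene lists and the tests were chosen with earlier results of these data known. Named are the 5 highest and 5 lowest members of each comparison, those past 1.5-fold, the isoform pairs, the Sdh genes, members not measured everywhere, and Ucp1, Map3k5 and Ppargc1a. Genes named from the other lists, the probe disagreements and single subunits named for their role were chosen after their values were seen. Alternatives were normexp (offset 50), quantile, loess and median scaling, no scaling, other probe filters, the brightest probe, the series table, RefSeq names and leaving out each array. All 85 members matched a RefSeq name. The number of arrays limits the precision.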

Additional observations from a re-analysis of the deposited data

Results flagged for a closer look

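For 9 of the 83 measured members the genotype ratio pointed in opposite ways in the 2 tissues, by more than 2 technical SDs in each (0.174 in iBAT and 0.120 in eWAT on the log2 scale). That is 10.8% of the members, against 12.3% of the 20011 genes with both ratios, so the count is near that of genes in general. This difference between tissues was not tested, since each group has 1 array. In 8 of them (9.64% of members, 7.29% of all genes) the ASK1-deficient array was the lower in iBAT and the higher in eWAT. Among complex I genes, Ndufs3 was at −0.42 in iBAT and 0.20 in eWAT, and Ndufs4, an accessory subunit, at −0.32 and 0.18. Ndufc2 was at −0.25 and 0.15, Ndufa6 at −0.21 and 0.20, Ndufa3 at −0.19 and 0.19 and Ndufa5 at −0.19 and 0.12. Ndufa3 passed both limits only through its dim probe (signals 45.1 and 58.0 in eWAT), at −0.40 and 0.45, while its bright probes gave −0.14 and 0.09, and −0.04 and 0.03. Of the Ndufa5 and Sdhc probes, 1 each was inside a limit, at −0.13 in iBAT and 0.10 in eWAT for Ndufa5 and at 0.09 in eWAT for Sdhc, as was the eWAT value of 1 Atp5j2 probe (0.11). The membrane anchor Sdhc of complex II was at −0.25 and 0.13, and Atp5j2, a membrane subunit of the ATP synthase, at −0.27 and 0.13. Cox6b2 alone ran the other way, at 0.40 in iBAT and −0.13 in eWAT. The opposite signs were kept for each of the 9 under all 11 alternatives that give a ratio within a tissue, which use the same 4 arrays, but the sizes were not, and the values nearest 0 were −0.022 in iBAT for Ndufa5 and 0.033 in eWAT for Ndufa3.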

How the results depend on the processing

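With 1 array a group, the error from mice in ratios within a tissue cannot be estimated, and the limma fit rests on 1 residual degree of freedom. No paired analysis was possible because each group has 1 array and the labels give no replicate numbers, beyond the limma fit itself, which compares tissues within genotype and genotypes within tissue. In iBAT the genotype median of the members was −0.087 with quantile normalization, −0.14 with the percentile taken over the probes that every array read above background and −0.12 with loess, and ran from −0.32 to −0.087 over 12 alternatives. One scaling constant for each array leaves the members' median 0.195 below that of all genes, while quantile normalization and loess gave gaps of 0.0741 and 0.110. Members at least 1.5-fold lower in iBAT numbered 1 (Atp5e) with median centring and with the series table. In eWAT the median was 0.0032 with quantile normalization and −0.022 with no scaling. The tissue median in WT was 2.05 with normexp, 1.57 with quantile normalization, 1.28 with no scaling, 2.06 with that other percentile and 1.77 with loess. In ASK1-deficient mice it was 1.77 with normexp, 1.44 with quantile normalization, 1.07 with no scaling, 1.76 with median centring, 1.58 with loess and 1.77 with the series table. Members called higher in iBAT numbered 75 to 80 throughout. Those called lower numbered 2 with normexp, quantile normalization or loess, 3 with no scaling, and 0 with the series table, no filter on dim probes or the brightest probe. When 1 array was left out and tissue alone fitted, a depot kept 1 array. A change in the lower calls there cannot be told from changed precision. With no scaling, Ndufa4l2 turned to −0.76 (adjusted p = 0.00837) and Atp5c1 to −0.0019 (adjusted p = 0.991). No scaling moved the tissue median of all genes in WT from 0.19 to −0.73, so it is the array constants that turned these. Genes at least 1.5-fold higher or lower numbered 953 and 849 in iBAT and 423 and 530 in eWAT, but 314 and 401, and 115 and 213, with normexp, and 2744 and 2390, and 1976 and 2041, without a filter on dim probes. For all other changes the cause was not tested. No member was called for genotype over both tissues in any alternative.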

Other observations

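The regulators of mitochondrial biogenesis had a median genotype log2 ratio of −0.29 in iBAT over 13 genes, all 13 of them below 0 (56.3% of all genes were), where the median of all genes was −0.04 and none of the 13 was 1.5-fold lower. Tfam, which binds and packs mitochondrial DNA, was at −0.48, the oestrogen-related receptor Esrra at −0.48 and Ppargc1b at −0.01. In eWAT the median was −0.07 over 12 genes. Between depots 9 of 12 (33.4% of all genes) were called higher in iBAT with limma, led by Esrrg (5.20, adjusted p = 3.65e-05), Ppargc1b (4.0, adjusted p = 5.24e-05) and Ppargc1a (3.69, adjusted p = 6.18e-05), while Nrf1 (−0.37, adjusted p = 0.0753) was not called.

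Other proteins of the mitochondrial membranes (pores, carriers, import, cristae and fusion) were below 0 in iBAT for 18 of 18 genes (56.3% of all genes were), with a median of −0.30, and above 0 in eWAT for 17 of 18 (57.6% of all genes), with a median of 0.09. The carnitine carrier Slc25a20 was at −0.65 in iBAT, the phosphate carrier Slc25a3 at −0.54 and the import pore Tomm40 at −0.50. Called higher in iBAT than in eWAT were 16 of 18 (33.4% of all genes), led by Slc25a20 (3.23, adjusted p = 0.000183). Slc25a3 was at −0.03 (adjusted p = 0.917).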
